A study of Bos taurus with 6 samples.

Results

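Fetal rumen was compared with fetal forebrain in the RNA of cattle, across every gene of the deposited count table. The rumen is the largest forestomach chamber of cattle. The libraries, called here Rumen 1 and 2 and Forebrain 1 and 2, are the 4 labelled with these tissues among the 6 of the series, and the other 2 are of liver. Groups were taken from the tissue labels alone. Every library is of wild-type genotype and from a male Holstein fetus of 90 days, obtained at a slaughterhouse. No treatment is given for these tissues. The protocol speaks of 4 cows with 2 male and 2 female fetuses, so the male libraries come from at most 2 fetuses. No label ties a library to a fetus, so p-values here reflect how far these libraries vary, and that variation may be technical only. Total counts lay between 10271024 and 12910828 in these libraries. Of 14179 gene symbols, 11478 passed the filter on low counts in the 6 libraries and were tested, and 1359 had no count in any library.

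The rumen wall is built from a stratified epithelium, a vascular connective tissue and layers of smooth muscle that hold the neurons of the enteric nervous system. Its epithelium later absorbs the short-chain fatty acids that microbes make from feed. The fetal forebrain is made of dividing progenitors, young neurons that extend axons and form synapses, and the first glia. Bulk RNA mixes these cells, so fewer cells of a type and less RNA per cell cannot be told apart.

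Levels are in CPM, counts scaled to a common library size, and are given for library 1 and then library 2 of a tissue. A gene is called higher or lower where edgeR's quasi-likelihood test of rumen against forebrain gave a Benjamini-Hochberg adjusted p under 0.05 over all tested genes. Log2 fold changes are rumen minus forebrain, with their standard error (SE). The call passed for 4515 of 11478 genes, which is 39.3%, and 5630 genes had an unadjusted p under 0.05. Of these calls 2235 were higher in rumen (19.5% of all tested genes) and 2280 lower (19.9%), and the median log2 fold change over all tested genes was -0.0095. Each count of a gene list below stands against these shares. The differences were large as well as many, with 1330 genes higher by at least 4-fold and 1287 lower by at least 4-fold. Among the called genes, 136 were higher in rumen with no count in either forebrain library, and 237 were lower with no count in either rumen library.

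**Figure D1:**
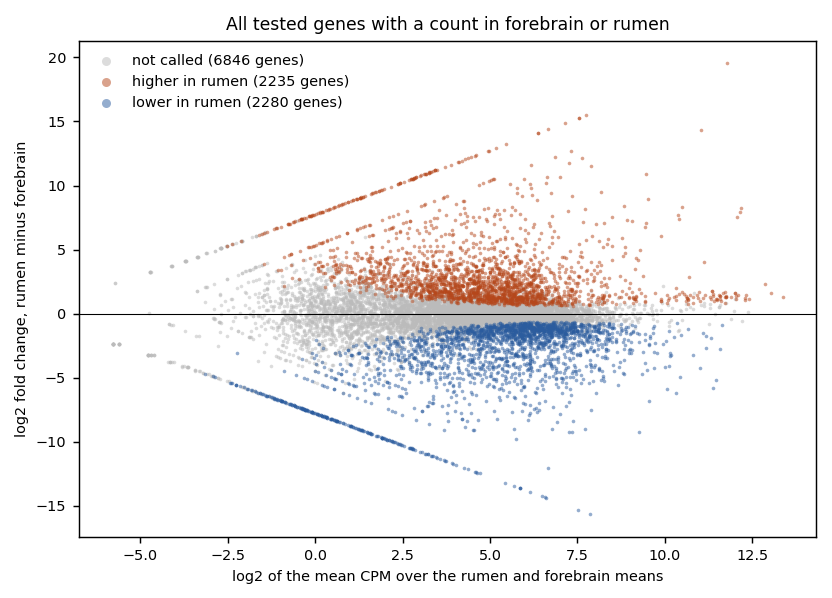
Every tested gene with a count in forebrain or rumen, by the log2 of its mean CPM (horizontal axis) and its fitted log2 fold change of rumen minus forebrain (vertical axis), colored by call. The 2235 genes higher in rumen and the 2280 lower in rumen form clouds of like size, and the straight lines at the upper and lower edge are genes with no count or very few in 1 tissue, whose fitted fold change depends on the prior count.

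The number of calls rested on each library. Without Forebrain 1, 931 genes were higher and 947 lower, and without Forebrain 2 the counts were 1010 and 963. Without Rumen 1 they were 1106 and 1027, and without Rumen 2 they were 1159 and 955. Without Liver 1 they rose to 3482 and 3651, and without Liver 2 to 3481 and 3659. The liver libraries enter this fit through the shared estimate of the spread, and they differed from each other more than the other pairs did. The SD of the log2 ratio between the libraries of a tissue was 0.945 in liver, against 0.249 in forebrain and 0.211 in rumen. It was taken only over tested genes with a high mean count in the tissue concerned, so the genes differ between tissues. Gene lists followed the pattern of the calls. Of 237 counts above 0 over the lists, 224 were lower without at least 1 forebrain or rumen library, and 196 were higher without at least 1 liver library. Ranges given beside the list counts below are the lowest and the highest count over the 6 fits that each leave out 1 library. Where another scaling of the libraries moved the split between higher and lower by more than 10 percentage points, that split follows. A gene named below as higher or lower passed in all 6 of these fits unless its sentence says otherwise, a choice made after these fits were seen. In each such gene both rumen libraries lay on the same side of both forebrain libraries. With so few libraries that order largely comes with the call and is no separate support, wherever it is mentioned below. ENO1, ALDOA and GNAS, given below, did not pass and had it too. Its share over all tested genes is not given here.

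**Figure D2:**
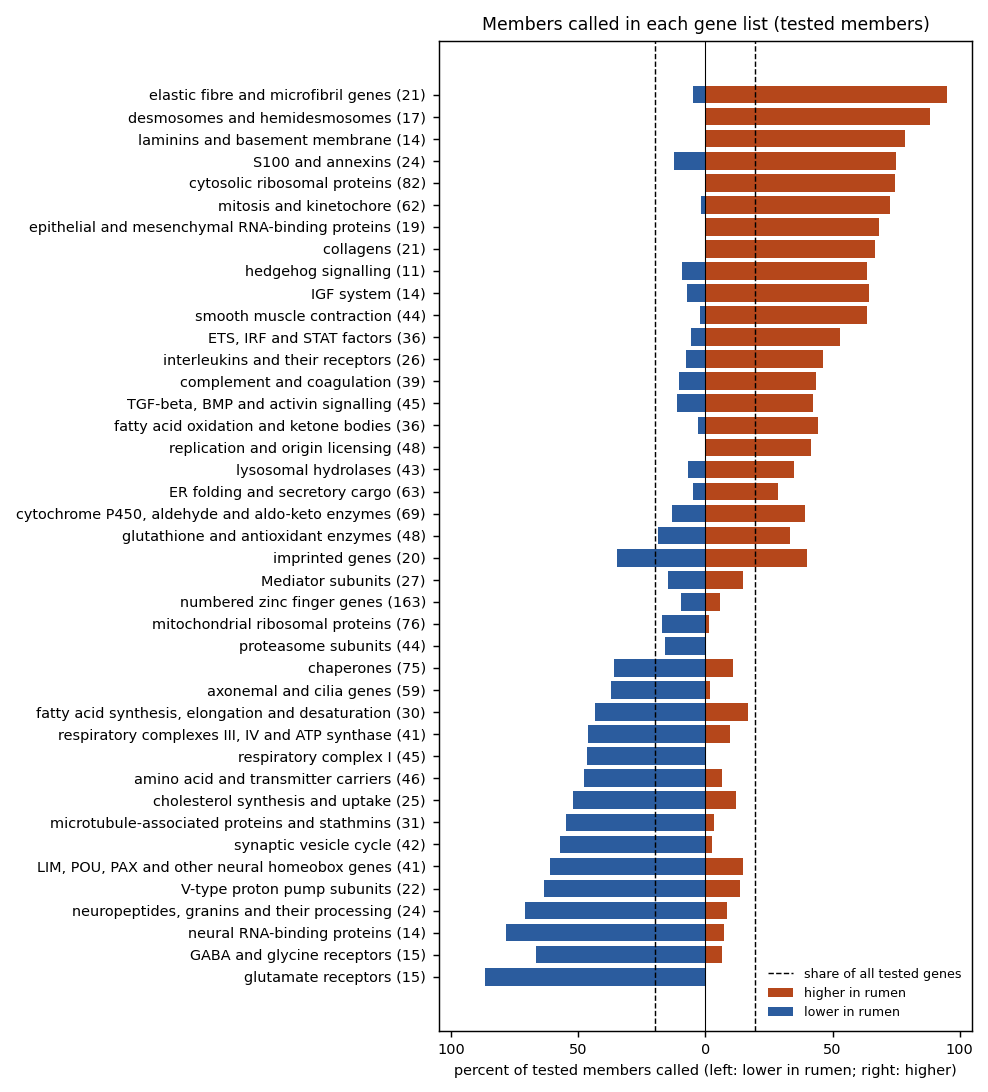
Share of the tested members of 41 gene lists called lower (bars to the left, in percent) and higher (bars to the right, in percent) in rumen, with the number of tested members in brackets and dashed lines at the shares over all tested genes. Lists of the synapse, of the proton pump and of respiration extend to the left, and lists of the extracellular matrix, cell junctions, mitosis and the cytosolic ribosome to the right.

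The forebrain libraries carried neural regulators, but several factors of the cerebral cortex were at or near 0. EMX1, a cortical homeobox gene, had 0.0813 and 0.144 CPM, and EOMES, a factor of cortical intermediate progenitors, had 0 and 0.0722 CPM. TBR1, a factor of early cortical neurons, had 0.0813 and 1.01 CPM. LHX2, a LIM homeobox factor of the forebrain and eye field, had 73.8 and 65.1 CPM in forebrain and 0.383 and 0.312 CPM in rumen (log2 fold change -7.60, SE 0.80, adjusted p = 0.00096). Of the factors known from the midbrain and diencephalon, 4 are given here that were present in both forebrain libraries and had no count in rumen. BARHL1 had 38.3 and 38.5 CPM, BARHL2 28.3 and 22.8 CPM, SOX14 32.5 and 21.4 CPM and TFAP2B 62.6 and 41.6 CPM in forebrain. Against the level that 3 counts over both rumen libraries would give, BARHL1 was at least 331-fold lower in rumen and TFAP2B at least 444-fold lower. The forebrain libraries also differed from each other. NKX2-1, a factor of the hypothalamus and the ventral forebrain, had 3.9 and 68.6 CPM and FEZF2, a factor of early forebrain and deep-layer neurons, had 0.894 and 10.7 CPM, higher in Forebrain 2 than in Forebrain 1 in both genes. The lists of 11 tested telencephalon factors and 16 tested midbrain and diencephalon factors were drawn up after these values were seen. They held 7 and 13 members lower in rumen (4 to 7 and 6 to 13 with 1 library left out) and none higher. The part of these regional differences in the results below was not tested.

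Markers of other cell types were present in both tissues. Of 28 tested endothelial markers, 11 were higher and 3 lower in rumen (1 to 15 and 2 to 4 with 1 library left out), and their summed level was 819 and 947 CPM in forebrain and 1476 and 1387 CPM in rumen. PECAM1, an endothelial adhesion molecule, had 19.4 and 27.1 CPM in forebrain and 40.8 and 35.5 CPM in rumen. CDH5, the cadherin of endothelial junctions, had 3.33 and 4.55 CPM in forebrain and 5.36 and 5.54 CPM in rumen, and neither PECAM1 nor CDH5 passed the test. Of 24 tested markers of macrophages and microglia, 6 were lower and 4 higher in rumen (0 to 8 and 3 to 6 with 1 library left out, 5 and 6 with upper-quartile scaling), with a summed level of 186 and 266 CPM in forebrain and 297 and 334 CPM in rumen. The median log2 fold change of these 24 markers was -0.92. Unlike that median, TMEM119, known as a marker of microglia and also of bone-forming cells, was higher in rumen. It had 0.244 and 0 CPM in forebrain and 38.6 and 37 CPM in rumen. Red cell markers summed to 517 and 559.9 CPM in forebrain and 728 and 619 CPM in rumen, and 2 of 19 tested were called, both higher in rumen. Hepatocyte markers summed to 104 and 138 CPM in forebrain and 79 and 71.9 CPM in rumen, and their calls were 2 higher and 3 lower of 17 tested (0 to 2 and 2 to 5 with 1 library left out, 1 and 3 with DESeq2 size factors). The shares called in the red cell list were 10.5% higher and 0% lower, and in the hepatocyte list 11.8 and 17.6%. All of these were under the shares of all tested genes. ALB, the plasma carrier albumin, was lower in rumen, with 15.4 and 10.2 CPM in forebrain and 0.383 and 1.01 CPM in rumen. TTR, which marks the choroid plexus, had 0.569 and 2.81 CPM in forebrain and 0.306 and 0.078 CPM in rumen, a low level in both, and its call did not pass without Forebrain 2 (adjusted p = 0.24), Rumen 1 (adjusted p = 0.11) or Rumen 2 (adjusted p = 0.2). Counted together, markers of choroid plexus and meninges had 7 higher and 3 lower in rumen of 15 tested. They summed to 445 and 514 CPM in forebrain and 7843 and 8064 CPM in rumen. The direction of TTR was thus not that of most calls in this list. The part of these cells in the results below was not tested.

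Genes of the cytosolic ribosome were more often higher than lower in rumen. Of 82 tested genes for cytosolic ribosomal proteins, 61 were higher and 0 lower in rumen (7 to 74 and 0 to 1 with 1 library left out), and the median log2 fold change was 1.15. The list took 13 and 15.6% of the counts of the forebrain libraries and 30.1 and 27.3% of those of the rumen libraries. RPS9, a protein of the small subunit, had 997 and 1349 CPM in forebrain and 4268 and 3830.4 CPM in rumen (log2 fold change 1.79, SE 0.30, adjusted p = 0.0051). RPL36, a protein of the large subunit, had 391 and 625 CPM in forebrain and 2398 and 1677 CPM in rumen (log2 fold change 2.00, SE 0.32, adjusted p = 0.0044). Both rumen libraries stood above both forebrain libraries in these genes. Ribosomal protein genes have near-identical copies in the genome, so their counts are uncertain where reads were shared. The genes for mitochondrial ribosomal proteins did not share the direction. Of 76 tested, 13 were lower and 1 higher in rumen (1 to 32 and 0 to 14 with 1 library left out), with a median of -0.30. The share lower, 17.1%, was under the 19.9% of all tested genes. MRPL15, of the large mitochondrial subunit, was lower, with 89.4 and 99.7 CPM in forebrain and 28.8 and 22 CPM in rumen.

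Translation factors split by gene rather than by group, with 16 higher and 7 lower of 58 tested (4 to 22 and 2 to 16 with 1 library left out). EEF1D, a subunit of the exchange factor that recharges elongation factor 1, had 138 and 167 CPM in forebrain and 1322 and 1037 CPM in rumen (log2 fold change 2.95, SE 0.26, adjusted p = 0.00055). PABPC1, the main cytoplasmic poly(A)-binding protein, had 662 and 735 CPM in forebrain and 2042 and 2008 CPM in rumen. EIF4EBP1, a repressor of cap-dependent initiation, had 9.35 and 22.2 CPM in forebrain and 157 and 125 CPM in rumen. All 3 stood higher in both rumen libraries than in either forebrain library. EEF1A2, the elongation factor form of neurons and muscle, had 2314 and 3070.0 CPM in forebrain and 84.8 and 88.6 CPM in rumen (log2 fold change -4.96, SE 0.28, adjusted p = 0.00025) and was the form that was lower in rumen. Its widely expressed counterpart EEF1A1 had 5870.1 and 6541 CPM in forebrain and 15732 and 14345 CPM in rumen, higher in rumen, but did not pass without Forebrain 1 (adjusted p = 0.12), Forebrain 2 (adjusted p = 0.087), Rumen 1 (adjusted p = 0.13) or Rumen 2 (adjusted p = 0.1). EIF4E3, a cap-binding protein, had 173 and 146 CPM in forebrain and 29.3 and 34.3 CPM in rumen, lower in both rumen libraries.

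**Figure D3:**
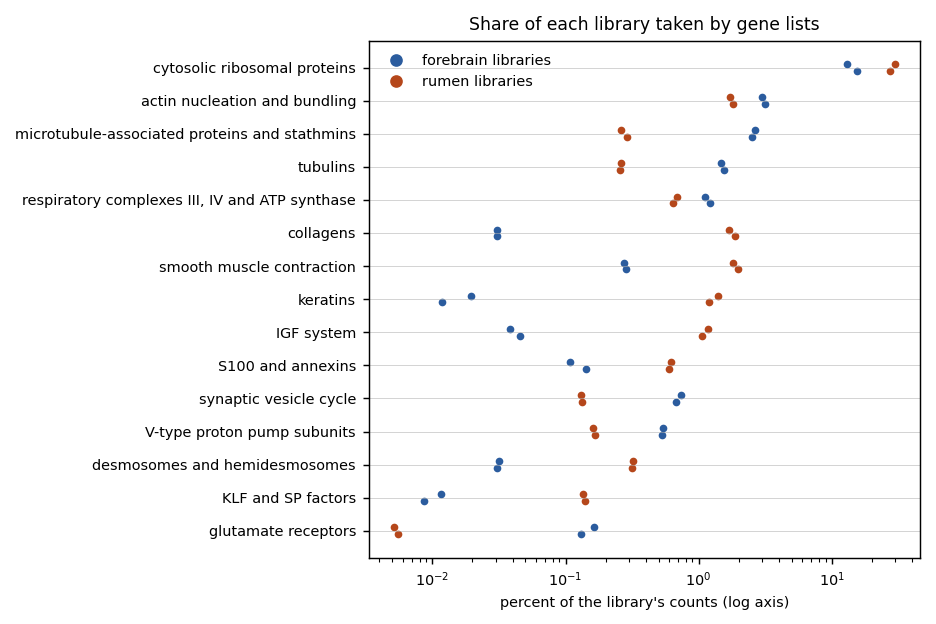
Share of the counts of each library taken by 15 gene lists, in percent on a log axis, with 1 point for each of the 2 forebrain libraries and each of the 2 rumen libraries. The cytosolic ribosomal proteins lead in all 4 libraries, with 13.0 and 15.6% in forebrain and 30.1 and 27.3% in rumen, and no list shown has overlapping tissues.

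RNA-binding proteins of neurons were lower in rumen, and those of epithelium and mesenchyme were higher. Of 14 tested neural RNA-binding proteins, 11 were lower and 1 higher in rumen (7 to 12 and 1 with 1 library left out). NOVA2, a neuronal splicing regulator, had 54.8 and 81.1 CPM in forebrain and 1.3 and 1.33 CPM in rumen (log2 fold change -5.68, SE 0.58, adjusted p = 0.00083). CELF4, a neuronal regulator of RNA processing and stability, had 127 and 139.8 CPM in forebrain and 11.6 and 5.31 CPM in rumen. KHDRBS3, a signal-responsive splicing regulator, had 224 and 235 CPM in forebrain and 28.9 and 43.5 CPM in rumen. The forebrain libraries stood above the rumen libraries in all 3. The exception among the neural proteins was IGF2BP1, a fetal mRNA-binding protein, with 1.71 and 1.52 CPM in forebrain and 34.1 and 24.7 CPM in rumen, higher in rumen. Of 19 tested RNA-binding proteins of epithelium and mesenchyme, 13 were higher and 0 lower in rumen (10 to 15 and 0 to 2 with 1 library left out). ESRP1, a splicing regulator of epithelial cells, had 0.0813 and 0 CPM in forebrain and 136 and 154 CPM in rumen (adjusted p = 0.00025), on 1 count in all in forebrain. ESRP2, its paralogue, had 0.244 and 0.433 CPM in forebrain and 74 and 78.1 CPM in rumen (log2 fold change 7.76, SE 0.76, adjusted p = 0.00073). RBM47, an epithelial RNA-binding protein, had 0.732 and 1.08 CPM in forebrain and 36.7 and 32.5 CPM in rumen. PTBP1, a splicing repressor that is switched off as neurons form, had 44.3 and 39.5 CPM in forebrain and 350.0 and 306 CPM in rumen (log2 fold change 2.97, SE 0.25, adjusted p = 0.00048), while its neural relative PTBP2 had 7.89 and 5.12 CPM in forebrain and 1.15 and 2.58 CPM in rumen and did not pass. Among proteins that destabilise mRNAs with AU-rich elements, ZFP36L1 had 85.1 and 89.3 CPM in forebrain and 548 and 628 CPM in rumen, and ZFP36L2 had 63.2 and 61.8 CPM in forebrain and 421 and 470.2 CPM in rumen. Among 64 tested SR proteins, hnRNPs and core splicing factors, 10 were higher and 2 lower in rumen (0 to 26 and 1 to 10 with 1 library left out, 8 and 4 with library totals alone). These shares, 15.6% higher and 3.12% lower, were under the 19.5 and 19.9% of all tested genes. SNRPN, an imprinted neuronal splicing protein of this list, had 458 and 545 CPM in forebrain and 83.9 and 80.2 CPM in rumen.

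Imprinted genes, which are read from the copy of 1 parent, were called in both directions. IGF2, the fetal growth factor, had 6.18 and 52.4 CPM in forebrain and 9879 and 8454 CPM in rumen (log2 fold change 8.29, SE 1.11, adjusted p = 0.0022). H19, the non-coding RNA beside it, had 19.8 and 54.6 CPM in forebrain and 8588 and 9386 CPM in rumen (log2 fold change 7.92, SE 0.72, adjusted p = 0.0006). Both were low in the forebrain libraries, where Forebrain 2 stood above Forebrain 1, and among the most abundant RNAs of both rumen libraries. IGF2R, which clears IGF2, had 31.5 and 26.2 CPM in forebrain and 211 and 234 CPM in rumen. PLAGL1, a zinc finger regulator of the imprinted gene network, had 19.1 and 20.5 CPM in forebrain and 181 and 201 CPM in rumen (log2 fold change 3.27, SE 0.35, adjusted p = 0.00097). MEG8, a non-coding RNA, had 55.5 and 34.9 CPM in forebrain and 258 and 317 CPM in rumen, higher in rumen, but did not pass without Forebrain 1 (adjusted p = 0.11), Forebrain 2 (adjusted p = 0.17), Rumen 1 (adjusted p = 0.095) or Rumen 2 (adjusted p = 0.12). The forebrain was high in other imprinted genes. NNAT, or neuronatin, a small membrane protein of the endoplasmic reticulum, had 4857 and 5567 CPM in forebrain and 84.9 and 99.5 CPM in rumen (log2 fold change -5.82, SE 0.45, adjusted p = 0.00041). PEG3, a zinc finger protein, had 737 and 836 CPM in forebrain and 161 and 133 CPM in rumen, but did not pass without Rumen 2 (adjusted p = 0.059). PEG10, a gene derived from a retrotransposon, had 3185 and 4849 CPM in forebrain and 589 and 640.2 CPM in rumen, lower in rumen, but did not pass without Rumen 1 (adjusted p = 0.054) or Rumen 2 (adjusted p = 0.051). DIRAS3, a small GTPase of the RAS family, had 993 and 1568 CPM in forebrain and 80.7 and 98 CPM in rumen, and both rumen libraries were below both forebrain libraries. MEG3, a non-coding RNA, had 389 and 343 CPM in forebrain and 1508 and 1689 CPM in rumen and did not pass, and GNAS, the stimulatory G protein gene, had 3813 and 4869.9 CPM in forebrain and 2968 and 3468 CPM in rumen and did not pass. Over 20 tested imprinted genes, a list drawn up after these values were seen, 8 were higher and 7 lower in rumen (5 to 10 and 4 to 7 with 1 library left out). It took 1.81 and 2.2% of the counts of the forebrain libraries and 2.62 and 2.8% of those of the rumen libraries.

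Chromatin remodeler genes were called in both directions. Of 37 tested remodeler genes, 8 were higher and 7 lower in rumen (2 to 14 and 2 to 8 with 1 library left out). These shares, 21.6 and 18.9%, were close to the 19.5 and 19.9% of all tested genes. ACTL6B, the actin-related subunit that neurons put into the BAF remodeling complex, had 74.5 and 86.2 CPM in forebrain and 6.2 and 3.67 CPM in rumen (log2 fold change -4.02, SE 0.58, adjusted p = 0.0028). SS18L1, another subunit of the neuronal form, had 101 and 70.3 CPM in forebrain and 10.0 and 11 CPM in rumen (log2 fold change -3.03, SE 0.30, adjusted p = 0.0008). DPF1, the zinc finger subunit of that form, had 58.4 and 53.3 CPM in forebrain and 4.13 and 0.936 CPM in rumen, lower in rumen, but did not pass without Forebrain 1 (adjusted p = 0.066), Forebrain 2 (adjusted p = 0.058) or Rumen 2 (adjusted p = 0.059). SMARCD2, an alternative subunit of the same complex, had 4.8 and 6.35 CPM in forebrain and 71.2 and 65.4 CPM in rumen (log2 fold change 3.61, SE 0.36, adjusted p = 0.00078), higher in rumen, while SMARCD3 had 327 and 375 CPM in forebrain and 88.2 and 86.8 CPM in rumen, lower, but did not pass without Rumen 1 (adjusted p = 0.05) or Rumen 2 (adjusted p = 0.053). ACTL6A, the form of dividing progenitors, had 15.4 and 14.2 CPM in forebrain and 24.9 and 26.4 CPM in rumen and did not pass. BAZ1A, a subunit of ISWI remodelers, had 13.4 and 10.6 CPM in forebrain and 53.6 and 63.5 CPM in rumen, higher in both rumen libraries. Histone deacetylases also divided by gene. HDAC1 had 22.9 and 23.7 CPM in forebrain and 133 and 109.6 CPM in rumen (log2 fold change 2.38, SE 0.23, adjusted p = 0.00073). HDAC7, a class II enzyme, had 15.3 and 15.4 CPM in forebrain and 64.8 and 63.9 CPM in rumen, and both enzymes were higher in rumen. HDAC2, the close paralogue of HDAC1, had 379 and 380.3 CPM in forebrain and 175 and 163 CPM in rumen, lower in rumen, but did not pass without Forebrain 1 (adjusted p = 0.12), Forebrain 2 (adjusted p = 0.12), Rumen 1 (adjusted p = 0.12) or Rumen 2 (adjusted p = 0.15). PRDM6, a histone methyltransferase family member of smooth muscle, had no count in forebrain and 24.3 and 20.7 CPM in rumen, at least 196-fold higher. The numbered zinc finger genes were called in both directions. Among 163 tested, 16 were lower and 9 higher in rumen (2 to 36 and 1 to 26 with 1 library left out, 19 and 4 with library totals alone), with a median of -0.17. These shares, 9.82% lower and 5.52% higher, were under those of all tested genes. The member ZNF750, a regulator of epidermal differentiation, had no count in forebrain and 24 and 19 CPM in rumen.

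Transcription factors of several families were higher in rumen. KLF5, a zinc finger factor of proliferating epithelium and smooth muscle, had 7.72 and 6.21 CPM in forebrain and 1061 and 1069 CPM in rumen (log2 fold change 7.26, SE 0.36, adjusted p = 0.00025). KLF4, a factor of epithelial differentiation, had 4.96 and 4.26 CPM in forebrain and 57.6 and 39.2 CPM in rumen. The KLF and SP list had 6 of 15 tested members higher (2 to 7 with 1 library left out) and 1 lower. Of 36 tested ETS, IRF and STAT factors, 19 were higher and 2 lower in rumen (8 to 25 and 0 to 3 with 1 library left out). ELF3, an ETS factor of epithelium, had 2.2 and 2.24 CPM in forebrain and 122 and 129.5 CPM in rumen (log2 fold change 5.82, SE 0.76, adjusted p = 0.0021), and its relative ELF5 had no count in forebrain and 32.1 and 20.4 CPM in rumen, at least 229.7-fold higher. ELF1, a widely expressed ETS factor, had 2.6 and 3.46 CPM in forebrain and 66.4 and 64 CPM in rumen. OVOL2, a factor that holds cells in the epithelial state, had no count in forebrain and 46.1 and 48.4 CPM in rumen, at least 412-fold higher.

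Nuclear receptors were called in both directions. Of 31 tested, 10 were higher and 4 lower in rumen (6 to 12 and 1 to 5 with 1 library left out). RXRA, the common partner of many nuclear receptors, had 10.7 and 11.9 CPM in forebrain and 167 and 156 CPM in rumen (log2 fold change 3.83, SE 0.31, adjusted p = 0.00043). RARG, a retinoic acid receptor of epithelium, had 2.36 and 3.25 CPM in forebrain and 89.8 and 69.4 CPM in rumen (log2 fold change 4.82, SE 0.38, adjusted p = 0.00043). RARA, another, had 15.2 and 19.8 CPM in forebrain and 119.5 and 93.5 CPM in rumen. All rumen values in these receptors were above all forebrain values. PPARG, a receptor of fat cells and epithelium that binds fatty acids, had 0.325 and 0.433 CPM in forebrain and 18.8 and 24 CPM in rumen. NR3C1, the glucocorticoid receptor, had 21.5 and 25.2 CPM in forebrain and 107 and 107 CPM in rumen. In the opposite direction THRA, a thyroid hormone receptor, had 409 and 437 CPM in forebrain and 107 and 104 CPM in rumen (log2 fold change -2.01, SE 0.28, adjusted p = 0.0026). RXRG, the third retinoid X receptor, had 19.4 and 34.9 CPM in forebrain and 1.61 and 2.42 CPM in rumen, lower in rumen, but did not pass without Forebrain 1 (adjusted p = 0.056), Forebrain 2 (adjusted p = 0.13), Rumen 1 (adjusted p = 0.1) or Rumen 2 (adjusted p = 0.083).

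The list of LIM, POU, PAX and other homeobox genes was drawn up for neural factors. Its members were more often lower than higher in rumen, and homeobox genes outside it are not counted here. The bHLH factors were called in both directions. Of 41 tested LIM, POU, PAX and other homeobox genes, 25 were lower and 6 higher in rumen (11 to 30 and 1 to 7 with 1 library left out), with a median of -5.62. LHX5, a LIM homeobox gene of early neurons, had 26.7 and 35 CPM in forebrain and no count in rumen, at least 268-fold lower. LMO1, a LIM-only cofactor, had 174 and 132 CPM in forebrain and 2.14 and 2.34 CPM in rumen (log2 fold change -6.09, SE 0.33, adjusted p = 0.00025). SIX5, a homeobox gene, was on the rumen side, with 4.88 and 4.62 CPM in forebrain and 74.5 and 62.4 CPM in rumen (log2 fold change 3.85, SE 0.44, adjusted p = 0.0013). Among the bHLH factors of mesenchyme, TWIST1 had 0 and 0.505 CPM in forebrain and 39.8 and 41.3 CPM in rumen, and TWIST2 had 0.244 and 0.433 CPM in forebrain and 53.5 and 63.1 CPM in rumen. BHLHE40, a repressor linked to the circadian clock, had 6.1 and 6.21 CPM in forebrain and 98.2 and 117 CPM in rumen. ATOH8 had 4.8 and 4.4 CPM in forebrain and 27.5 and 21.5 CPM in rumen. NEUROD6, a factor of young neurons, had 13.8 and 13.2 CPM in forebrain and no count in rumen. The bHLH list had 9 higher and 6 lower of 26 (6 to 12 and 2 to 9 with 1 library left out). HES1, a Notch-responsive repressor of many tissues, had 13.8 and 18.6 CPM in forebrain and 86.9 and 88.6 CPM in rumen (log2 fold change 2.43, SE 0.29, adjusted p = 0.0014), opposite to its neural relative HES5 with 35.1 and 35.3 CPM in forebrain and 1.38 and 1.4 CPM in rumen.

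Genes of cell division were more often higher than lower in rumen. Of 62 tested genes of mitosis and the kinetochore, 45 were higher and 1 lower in rumen (27 to 53 and 0 to 1 with 1 library left out), with a median of 1.86. KIF20A, a kinesin of the final separation of daughter cells, had 4.23 and 2.74 CPM in forebrain and 65.4 and 71.4 CPM in rumen (log2 fold change 4.30, SE 0.30, adjusted p = 0.00034). CDCA2, a phosphatase subunit of mitotic exit, had 2.44 and 1.73 CPM in forebrain and 25.2 and 31.8 CPM in rumen. PRC1, which bundles the central spindle, had 17.2 and 11.2 CPM in forebrain and 60.6 and 66.6 CPM in rumen. Among condensin subunits, SMC4 had 15.4 and 17 CPM in forebrain and 69.5 and 77.2 CPM in rumen, and NCAPD2 had 12.4 and 13.4 CPM in forebrain and 72 and 73 CPM in rumen. In all of these genes the lower rumen library was above the higher forebrain library. Of 48 tested genes of replication and origin licensing, 20 were higher and 0 lower in rumen (8 to 29 and 0 to 7 with 1 library left out), with a median of 0.62. UHRF1, which carries DNA methylation through replication, had 4.96 and 6.64 CPM in forebrain and 45.6 and 46.7 CPM in rumen (log2 fold change 2.99, SE 0.30, adjusted p = 0.00077). POLD1, the catalytic subunit of polymerase delta, had 12 and 17.7 CPM in forebrain and 106 and 93.6 CPM in rumen. RRM2, of the enzyme that makes deoxyribonucleotides, had 29.4 and 31.9 CPM in forebrain and 84.4 and 98.5 CPM in rumen. The difference between the mitosis and replication counts was not tested. Brakes on the cycle were also more often higher. Of 25 tested, 8 were higher and 2 lower in rumen (6 to 13 and 1 to 3 with 1 library left out). CDKN2B, an inhibitor of CDK4 and CDK6, had 1.46 and 0.794 CPM in forebrain and 30.6 and 41.2 CPM in rumen (log2 fold change 4.99, SE 0.75, adjusted p = 0.0034), and its relative CDKN2C had 2.93 and 2.81 CPM in forebrain and 20.7 and 22.4 CPM in rumen (log2 fold change 2.90, SE 0.38, adjusted p = 0.002). BTG1, an anti-proliferative factor, had 185 and 222 CPM in forebrain and 849.9 and 744 CPM in rumen. CDKN2D, another member of that family, had 197 and 200.1 CPM in forebrain and 25.9 and 22.9 CPM in rumen (log2 fold change -3.02, SE 0.25, adjusted p = 0.00046), lower in rumen. DNA repair genes had 14 higher and 3 lower of 55 (3 to 23 and 0 to 6 with 1 library left out), among them the checkpoint kinase CHEK2 with 0.244 and 0.361 CPM in forebrain and 5.28 and 5.54 CPM in rumen and the nuclease EXO1 with 0.813 and 1.3 CPM in forebrain and 8.03 and 7.18 CPM in rumen.

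Genes of mitochondrial respiration were more often lower than higher in rumen. Of 45 tested subunits and assembly factors of complex I, 21 were lower and 0 higher in rumen (3 to 33 and 0 to 1 with 1 library left out), with a median log2 fold change of -0.96. Of 41 tested genes of complexes III and IV and ATP synthase, 19 were lower and 4 higher in rumen (2 to 27 and 1 to 4 with 1 library left out), with a median of -0.73. NDUFA4, a subunit of the respiratory chain, had 512 and 514 CPM in forebrain and 126 and 103 CPM in rumen (log2 fold change -2.16, SE 0.27, adjusted p = 0.0018). NDUFV3 had 68.9 and 73.9 CPM in forebrain and 17.1 and 18.5 CPM in rumen. COX7B, of cytochrome oxidase, had 342 and 354 CPM in forebrain and 97.7 and 117 CPM in rumen (log2 fold change -1.70, SE 0.22, adjusted p = 0.002). The rumen libraries stood below the forebrain libraries in all 3. Complex I genes took 0.641 and 0.715% of the counts of the forebrain libraries and 0.353 and 0.346% of those of the rumen libraries. The respiratory list held a form that went the other way. COX8B, the heart and muscle form of a cytochrome oxidase subunit, had 0 and 0.0722 CPM in forebrain and 81.1 and 53.6 CPM in rumen (adjusted p = 0.0018), on 1 count in all in forebrain. The citric acid cycle had 12 lower and 3 higher of 30 (3 to 23 and 2 to 4 with 1 library left out). Succinate-CoA ligase showed both directions in its alternative beta subunits. SUCLA2, the form that makes ATP, had 146 and 139 CPM in forebrain and 42.9 and 31.7 CPM in rumen (log2 fold change -1.93, SE 0.28, adjusted p = 0.003). SUCLG2, the form that makes GTP, had 22.3 and 25 CPM in forebrain and 124 and 112 CPM in rumen (log2 fold change 2.32, SE 0.21, adjusted p = 0.00062). MDH1, the cytosolic malate dehydrogenase, had 506 and 468 CPM in forebrain and 88.2 and 99.3 CPM in rumen (log2 fold change -2.38, SE 0.31, adjusted p = 0.0021). SLC25A12, the aspartate-glutamate carrier that works with it in the malate-aspartate shuttle, had 102 and 94.3 CPM in forebrain and 18.1 and 18.4 CPM in rumen.

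**Figure D4:**
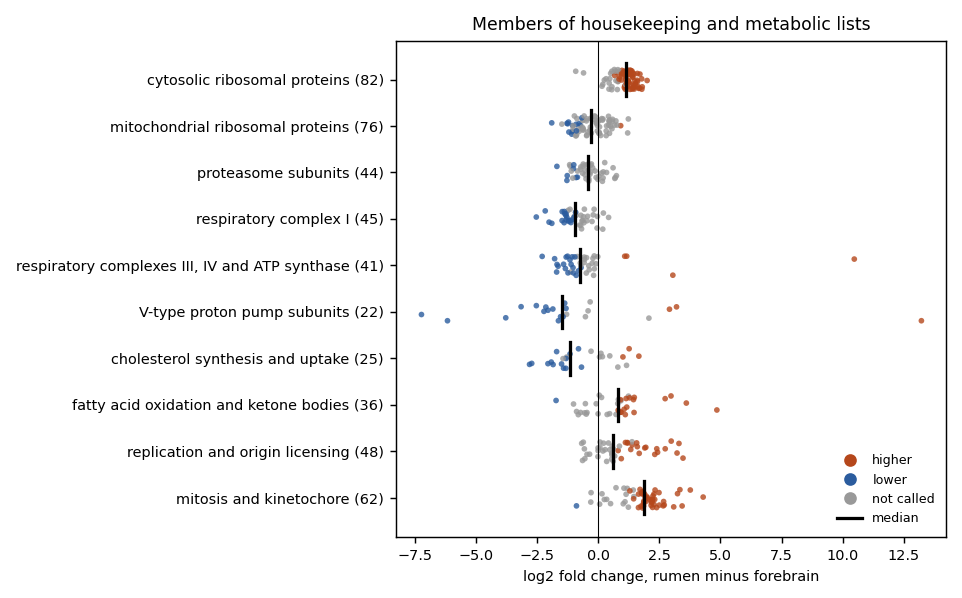
Fitted log2 fold changes (rumen minus forebrain, horizontal axis) of every tested member of 10 lists, 1 point per gene, colored by call, with the median of each list as a black bar. The medians are 1.15 for cytosolic ribosomal proteins, 1.86 for mitosis, -0.96 for complex I and -1.48 for the proton pump, and the proton pump gene farthest to the right, ATP6V1B1, had no count in Forebrain 1 or in Forebrain 2.

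Glycolysis genes were lower or did not pass in most cases, with 10 lower and 3 higher of 35 tested (4 to 16 and 1 to 7 with 1 library left out). The other 22 did not pass. These shares, 28.6% lower and 8.57% higher, stand against the 19.9 and 19.5% of all tested genes. LDHA, the lactate dehydrogenase subunit that favors lactate formation, had 57.7 and 60.5 CPM in forebrain and 318 and 289 CPM in rumen (log2 fold change 2.36, SE 0.38, adjusted p = 0.0043). LDHB, the heart form, had 691 and 637 CPM in forebrain and 317 and 339.8 CPM in rumen, lower in rumen, but did not pass without Forebrain 1 (adjusted p = 0.091), Forebrain 2 (adjusted p = 0.069), Rumen 1 (adjusted p = 0.099) or Rumen 2 (adjusted p = 0.087). ENO2, the enolase of neurons, had 397 and 381 CPM in forebrain and 13.4 and 9.36 CPM in rumen (log2 fold change -5.09, SE 0.43, adjusted p = 0.00049). ALDOC, the brain aldolase, had 444 and 449.9 CPM in forebrain and 25.8 and 25.1 CPM in rumen (log2 fold change -4.13, SE 0.32, adjusted p = 0.00041). Their widely expressed counterparts did not pass, ENO1 with 411 and 472 CPM in forebrain and 402 and 362 CPM in rumen and ALDOA with 435 and 505 CPM in forebrain and 615 and 606 CPM in rumen. PKLR, the pyruvate kinase of liver and red cells, had 13.5 and 9.67 CPM in forebrain and 1.68 and 0.78 CPM in rumen. SLC2A4, the insulin-responsive glucose carrier, had 0.0813 and 0 CPM in forebrain and 9.56 and 11.1 CPM in rumen, so PKLR was lower and SLC2A4 higher in rumen. Of 19 tested sugar carriers, 4 were lower and 3 higher in rumen, which is 21.1 and 15.8%.

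Of 36 tested genes of fatty acid oxidation and ketone bodies, 16 were higher and 1 lower in rumen (4 to 20 and 0 to 6 with 1 library left out), with a median of 0.82. DECR1, which prepares unsaturated fatty acids for oxidation, had 5.12 and 6.13 CPM in forebrain and 68.3 and 69.2 CPM in rumen (log2 fold change 3.61, SE 0.33, adjusted p = 0.0006). ACAA2, the last enzyme of mitochondrial beta-oxidation, had 12.5 and 14.2 CPM in forebrain and 115 and 96.3 CPM in rumen (log2 fold change 2.98, SE 0.23, adjusted p = 0.00042). ACOX2, a peroxisomal oxidase, had 0.813 and 0.505 CPM in forebrain and 19.4 and 19 CPM in rumen. The rumen libraries were above the forebrain libraries in all 3. Of 25 tested genes of cholesterol synthesis and uptake, 13 were lower and 3 higher in rumen (4 to 15 and 0 to 5 with 1 library left out), with a median of -1.15. HMGCS1, which makes the precursor of mevalonate, had 916 and 869 CPM in forebrain and 129 and 143 CPM in rumen (log2 fold change -2.71, SE 0.42, adjusted p = 0.0038). The members that were higher included SREBF1 and SREBF2, the factors that turn the pathway on. SREBF1 had 13.6 and 12.3 CPM in forebrain and 47.8 and 34.5 CPM in rumen but did not pass without Forebrain 2 (adjusted p = 0.057). SREBF2 had 85.5 and 73.1 CPM in forebrain and 163 and 157 CPM in rumen but did not pass without Forebrain 1 (adjusted p = 0.074), Forebrain 2 (adjusted p = 0.12), Rumen 1 (adjusted p = 0.09) or Rumen 2 (adjusted p = 0.074). Of 30 tested genes of fatty acid synthesis, elongation and desaturation, 13 were lower and 5 higher in rumen (5 to 19 and 3 to 6 with 1 library left out). ELOVL4, which makes very long chains, had 92.1 and 68.1 CPM in forebrain and 1.61 and 1.87 CPM in rumen (log2 fold change -5.52, SE 0.37, adjusted p = 0.00032), while ELOVL1, which makes saturated long chains, had 26.8 and 25.9 CPM in forebrain and 109 and 90.2 CPM in rumen. SCD5, a desaturase of the brain, had 313 and 346 CPM in forebrain and 16.3 and 20.4 CPM in rumen (log2 fold change -4.16, SE 0.30, adjusted p = 0.00035). AGPAT2, an enzyme of triglyceride synthesis, had 3.9 and 2.02 CPM in forebrain and 119.6 and 107 CPM in rumen (log2 fold change 5.26, SE 0.38, adjusted p = 0.00034), higher in both rumen libraries.

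Enzymes that modify foreign and endogenous small molecules were more often higher than lower in rumen. Of 69 tested cytochrome P450, aldehyde, aldo-keto and conjugating enzymes, 27 were higher and 9 lower in rumen (14 to 32 and 1 to 13 with 1 library left out). CYP2C18, a cytochrome P450 of epithelia, had 0.163 and 0.0722 CPM in forebrain and 143 and 141 CPM in rumen (adjusted p = 0.002), on 3 counts in all in forebrain. CYP4A11, a fatty acid hydroxylase, had no count in forebrain and 20.3 and 19.7 CPM in rumen, at least 174-fold higher, and CYP2B6 likewise had 12.1 and 16.5 CPM in rumen, at least 125-fold higher. DHRS3, which lowers retinaldehyde, had 20.7 and 15.2 CPM in forebrain and 161 and 131 CPM in rumen (log2 fold change 3.02, SE 0.35, adjusted p = 0.0013). SULT1A1, a phenol sulfotransferase, had 3.42 and 7.29 CPM in forebrain and 115 and 91.9 CPM in rumen (log2 fold change 4.26, SE 0.50, adjusted p = 0.0014), opposite to its brain relative SULT4A1 with 138 and 132 CPM in forebrain and 7.58 and 5.31 CPM in rumen. Of 48 tested glutathione and antioxidant enzymes, 16 were higher and 9 lower in rumen (10 to 21 and 4 to 15 with 1 library left out). Among enzymes that reduce peroxides, PRDX1 had 228 and 264 CPM in forebrain and 815 and 810.2 CPM in rumen, and PRDX6 had 56.8 and 79.2 CPM in forebrain and 270.3 and 237 CPM in rumen. GSTT1, a glutathione transferase, had 25.9 and 34.6 CPM in forebrain and 114 and 125 CPM in rumen. SOD3, the extracellular superoxide dismutase, had 0 and 0.144 CPM in forebrain and 10.2 and 12.7 CPM in rumen. The cytosolic superoxide dismutase SOD1 had 492 and 514 CPM in forebrain and 173 and 168 CPM in rumen (log2 fold change -1.56, SE 0.20, adjusted p = 0.0018), and the transferase GSTM3 had 189 and 192 CPM in forebrain and 37.4 and 35.5 CPM in rumen, and both were lower in rumen. Glutathione transferases and cytochromes P450 belong to families with similar copies, so reads may have been shared among them. SQOR, the mitochondrial enzyme that oxidises hydrogen sulfide, had 1.3 and 1.73 CPM in forebrain and 201 and 209 CPM in rumen (log2 fold change 7.06, SE 0.30, adjusted p = 0.00023) and was among the 10 smallest p-values of the genes higher in rumen.

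Chaperones were lower in rumen in most calls. Of 75 tested, 27 were lower and 8 higher in rumen (10 to 42 and 5 to 14 with 1 library left out). HSPA8, the constitutive HSP70 of the cytosol, had 3712 and 3457 CPM in forebrain and 1036 and 1110.3 CPM in rumen (log2 fold change -1.74, SE 0.25, adjusted p = 0.0028). DNAJA1, a cochaperone of HSP70, had 469.8 and 409 CPM in forebrain and 61.3 and 55.3 CPM in rumen (log2 fold change -2.91, SE 0.39, adjusted p = 0.0022). DNAJC6, the auxilin that uncoats synaptic vesicles, had 268 and 194 CPM in forebrain and 9.95 and 9.75 CPM in rumen. HSPA1A, the stress-inducible HSP70, had 219 and 302 CPM in forebrain and 4565 and 3845 CPM in rumen (log2 fold change 4.01, SE 0.54, adjusted p = 0.0023). The inducible gene was thus higher in both rumen libraries, while HSPA8 was lower. HSPB6, a small heat shock protein of muscle, had 5.12 and 9.38 CPM in forebrain and 416 and 542 CPM in rumen (log2 fold change 6.04, SE 0.43, adjusted p = 0.00034). BAG3, a cochaperone of HSP70 in muscle, had 2.52 and 4.04 CPM in forebrain and 15.6 and 19.7 CPM in rumen. Genes of the secretory pathway were more often higher than lower. Of 63 tested genes of folding in the endoplasmic reticulum and of secretion, 18 were higher and 3 lower in rumen (6 to 28 and 0 to 10 with 1 library left out). P4HB, which forms disulfide bonds and is a subunit of collagen hydroxylase, had 203 and 193 CPM in forebrain and 610.0 and 523 CPM in rumen (log2 fold change 1.52, SE 0.21, adjusted p = 0.0027). KDELR3, which returns escaped chaperones, had 9.68 and 11.1 CPM in forebrain and 84.6 and 91.8 CPM in rumen (log2 fold change 3.08, SE 0.26, adjusted p = 0.00049). COPZ2, a coat protein subunit, had 3.74 and 2.6 CPM in forebrain and 74 and 77.1 CPM in rumen.

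Genes of protein breakdown differed by class. Of 44 tested proteasome genes, 7 were lower and 0 higher in rumen (0 to 23 and 0 to 3 with 1 library left out, 6 and 2 with upper-quartile scaling). The share lower, 15.9%, was under the 19.9% of all tested genes. Of 89 tested substrate adaptors of cullin ubiquitin ligases, 24 were lower and 5 higher in rumen (8 to 35 and 1 to 11 with 1 library left out). KLHL13, an adaptor of cullin 3 in cell division, had 177 and 160.0 CPM in forebrain and 36.3 and 41.9 CPM in rumen. KCTD13, another, had 115 and 137 CPM in forebrain and 11.7 and 16.9 CPM in rumen. FBXO44, an F-box protein, had 163 and 119 CPM in forebrain and 18.9 and 20.9 CPM in rumen. FBXL22, an F-box protein of the muscle sarcomere, had 0 and 0.217 CPM in forebrain and 14.2 and 28.1 CPM in rumen, higher in rumen. Lysosomal hydrolases and membrane proteins had 15 higher and 3 lower of 43 (6 to 19 and 0 to 6 with 1 library left out). ACP5, an acid phosphatase of macrophages and bone-resorbing cells, had 1.46 and 2.09 CPM in forebrain and 228 and 189.9 CPM in rumen (log2 fold change 6.86, SE 0.32, adjusted p = 0.00025) and was among the 10 smallest p-values on the rumen side. CTSC, an activating protease of immune cells, had 13.1 and 14.3 CPM in forebrain and 158 and 127 CPM in rumen (log2 fold change 3.38, SE 0.24, adjusted p = 0.00034). CTSK, a collagen-degrading protease, had 4.88 and 3.97 CPM in forebrain and 43.5 and 43.8 CPM in rumen.

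The vacuolar proton pump, which acidifies lysosomes and synaptic vesicles, was lower in rumen in most of its subunits. Of 22 tested, 14 were lower and 3 higher in rumen (9 to 16 and 2 to 4 with 1 library left out), with a median of -1.48. ATP6V1E1, of the stalk, had 600.0 and 674 CPM in forebrain and 139 and 136 CPM in rumen (log2 fold change -2.21, SE 0.21, adjusted p = 0.00064). ATP6V1C1, which joins the soluble and membrane parts, had 158 and 145 CPM in forebrain and 27.8 and 24.9 CPM in rumen (log2 fold change -2.53, SE 0.22, adjusted p = 0.00057). ATP6AP2, an accessory protein, had 319 and 302 CPM in forebrain and 78.4 and 71.6 CPM in rumen. Some alternative subunits ran in opposite directions. ATP6V1G2, the G subunit of neurons, had 267 and 259 CPM in forebrain and 3.06 and 4.29 CPM in rumen (log2 fold change -6.16, SE 0.32, adjusted p = 0.00032). ATP6V0E2 had 227 and 229 CPM in forebrain and 15.5 and 17.9 CPM in rumen (log2 fold change -3.78, SE 0.39, adjusted p = 0.00088). ATP6V0E1, the other form of that small membrane subunit, had 12.8 and 13 CPM in forebrain and 101 and 94.1 CPM in rumen (log2 fold change 2.92, SE 0.24, adjusted p = 0.00048). Thus the forebrain libraries were higher for ATP6V0E2 and the rumen libraries for ATP6V0E1, with no overlap in either. ATP6V0D2, a form of the d subunit, had 21.9 and 27.1 CPM in forebrain and 0 and 0.312 CPM in rumen (log2 fold change -7.22, SE 0.92, adjusted p = 0.0019).

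Synaptic genes were lower in rumen across receptors, channels and vesicles. Of 15 tested glutamate receptor genes, 13 were lower (8 to 14 with 1 library left out) and none higher, with a median of -5.22. GRIA2, the AMPA receptor subunit that keeps calcium out, had 454 and 377 CPM in forebrain and 0.306 and 1.33 CPM in rumen (log2 fold change -8.98, SE 0.65, adjusted p = 0.00058). GRM8, a presynaptic metabotropic receptor, had 103 and 96.9 CPM in forebrain and 2.3 and 3.04 CPM in rumen (log2 fold change -5.22, SE 0.31, adjusted p = 0.00025). GRM3, an astrocyte and neuron receptor, had 222 and 158 CPM in forebrain and no count in rumen, at least 1626-fold lower. Of 15 tested GABA and glycine receptor genes, 10 were lower and 1 higher in rumen (4 to 13 and 0 to 1 with 1 library left out). GABRA5, an alpha subunit of the developing brain, had 123 and 108 CPM in forebrain and no count in rumen. Of 42 tested genes of the synaptic vesicle cycle, 24 were lower and 1 higher in rumen (18 to 31 and 0 to 3 with 1 library left out). SYT11, a synaptotagmin, had 439 and 462 CPM in forebrain and 25.6 and 29.3 CPM in rumen. SYNPR, a vesicle membrane protein, had 301 and 302 CPM in forebrain and 2.14 and 2.81 CPM in rumen (log2 fold change -6.92, SE 0.37, adjusted p = 0.00025). SNAP25, which drives vesicle fusion, had 902 and 775 CPM in forebrain and 62.7 and 75.2 CPM in rumen (log2 fold change -3.60, SE 0.39, adjusted p = 0.001). SNAP25 was therefore lower but not absent in the rumen libraries. Of 30 tested postsynaptic and adhesion genes, 18 were lower and 2 higher in rumen (7 to 23 and 0 to 3 with 1 library left out), among them the scaffold DLG4 with 104 and 98.2 CPM in forebrain and 14.6 and 16.2 CPM in rumen (log2 fold change -2.71, SE 0.24, adjusted p = 0.00056).

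Ion channel genes were more often lower than higher in rumen. Of 48 tested potassium channel genes, 22 were lower and 6 higher in rumen (10 to 26 and 2 to 6 with 1 library left out). KCNJ10, the potassium channel of astrocytes, had 24.1 and 16.8 CPM in forebrain and 0.23 and 0.156 CPM in rumen (log2 fold change -6.66, SE 0.64, adjusted p = 0.0007). KCNC1, of fast-firing neurons, had 50.3 and 31.7 CPM in forebrain and 2.14 and 0.78 CPM in rumen. KCNMB1, the beta subunit of the calcium-activated channel in smooth muscle, had 0.0813 and 0.0722 CPM in forebrain and 14.2 and 12 CPM in rumen (adjusted p = 0.0025). KCNMB4, the neuronal beta subunit, had 42.3 and 46.3 CPM in forebrain and 8.72 and 4.29 CPM in rumen (log2 fold change -2.77, SE 0.43, adjusted p = 0.0038). KCNJ15, an inward rectifier of epithelia, had no count in forebrain and 17.3 and 15.6 CPM in rumen, at least 143-fold higher. Of 20 tested sodium and calcium channel genes, 10 were lower and 1 higher in rumen (4 to 16 and 0 to 1 with 1 library left out). SCN2A, a sodium channel of young axons, had 335 and 275 CPM in forebrain and 3.21 and 7.02 CPM in rumen (log2 fold change -5.89, SE 0.48, adjusted p = 0.00076). CACNA2D1, an auxiliary calcium channel subunit of brain and muscle, had 355 and 362 CPM in forebrain and 96.3 and 109 CPM in rumen (log2 fold change -1.80, SE 0.20, adjusted p = 0.0012), so that it was lower but still present in both rumen libraries. TRPV4, an osmosensitive channel of epithelium, had 0.0813 and 0.144 CPM in forebrain and 8.34 and 11.3 CPM in rumen (adjusted p = 0.0015), on 3 counts in all in forebrain.

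Neuropeptides and the granins that pack them were mostly lower in rumen, but not all of them. Of 24 tested, 17 were lower and 2 higher in rumen (13 to 19 and 1 to 3 with 1 library left out). CPE, the carboxypeptidase that trims peptides, had 2101 and 2056 CPM in forebrain and 206 and 206 CPM in rumen (log2 fold change -3.33, SE 0.32, adjusted p = 0.0007). PCSK1N, an inhibitor of the cleaving protease, had 1052 and 1467 CPM in forebrain and 49.4 and 49.8 CPM in rumen (log2 fold change -4.67, SE 0.30, adjusted p = 0.00028). CCK, cholecystokinin, had 181 and 209 CPM in forebrain and no count in rumen, at least 1689-fold lower. These 3 genes of peptide supply were lower in both rumen libraries. TAC1, the substance P gene, had 367 and 204 CPM in forebrain and 3.14 and 0.702 CPM in rumen (log2 fold change -7.20, SE 0.79, adjusted p = 0.0019). CARTPT, a peptide of the hypothalamus and of enteric neurons, had 11.1 and 11.8 CPM in forebrain and 66.2 and 58.1 CPM in rumen (log2 fold change 2.43, SE 0.30, adjusted p = 0.0027), higher in rumen. VIP, the relaxing peptide of enteric neurons, had 9.92 and 6.35 CPM in forebrain and 39.3 and 55.4 CPM in rumen, higher in rumen, but did not pass without Forebrain 2 (adjusted p = 0.063) or Rumen 2 (adjusted p = 0.069). Markers of autonomic and enteric neurons divided in the same way, with 7 higher and 8 lower of 23 (3 to 7 and 5 to 9 with 1 library left out). PRPH, the neurofilament of peripheral neurons, had 14.1 and 14.8 CPM in forebrain and 165 and 197 CPM in rumen (log2 fold change 3.65, SE 0.37, adjusted p = 0.0008). TH, the rate-limiting enzyme of catecholamine synthesis, had 2.85 and 3.61 CPM in forebrain and 49.5 and 38.3 CPM in rumen. NEFL, the light neurofilament of central axons, had 231 and 165 CPM in forebrain and 6.12 and 6.95 CPM in rumen (log2 fold change -4.92, SE 0.32, adjusted p = 0.00046). ERBB3, a receptor of Schwann cell precursors and of epithelium, had 0.651 and 1.66 CPM in forebrain and 165 and 138 CPM in rumen (log2 fold change 7.00, SE 0.56, adjusted p = 0.00043). Over 15 tested markers of enteric glia and Schwann cells, 6 were higher and 3 lower in rumen. That list summed to 585 and 823 CPM in forebrain and 558 and 491.5 CPM in rumen.

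Carriers of amino acids and transmitters were more often lower than higher in rumen. Of 46 tested, 22 were lower and 3 higher in rumen (10 to 27 and 1 to 5 with 1 library left out). SLC1A6, a glutamate carrier of neurons, had 119 and 114 CPM in forebrain and no count in rumen, at least 1004-fold lower. SLC1A5, the neutral amino acid carrier of dividing cells, had 6.91 and 6.86 CPM in forebrain and 128 and 141 CPM in rumen (log2 fold change 4.28, SE 0.28, adjusted p = 0.00029), higher in rumen. Chloride and bicarbonate carriers of neurons, SLC12A5 with 178 and 127 CPM in forebrain and 1.07 and 0.702 CPM in rumen (log2 fold change -7.41, SE 0.38, adjusted p = 0.00025) and SLC4A10 with 122 and 92.6 CPM in forebrain and 0.23 and 0 CPM in rumen (adjusted p = 0.00066), were lower. Among water channels, AQP4 of astrocyte endfeet had 336 and 315 CPM in forebrain and 0.842 and 0.234 CPM in rumen (log2 fold change -9.21, SE 0.55, adjusted p = 0.0004). AQP5, of glands and surface epithelium, had 0.244 and 0.144 CPM in forebrain and 78 and 45.4 CPM in rumen (log2 fold change 8.26, SE 0.60, adjusted p = 0.00058). The channel of brain was lower and that of surface epithelium higher. AQP1, of capillaries, had 0.0813 and 0 CPM in forebrain and 19.2 and 15.4 CPM in rumen (adjusted p = 0.00048), on 1 count in all in forebrain. ATP1B3, a beta subunit, had 74.9 and 103 CPM in forebrain and 484 and 486 CPM in rumen (log2 fold change 2.44, SE 0.28, adjusted p = 0.0013). FXYD3, a regulator of the pump in epithelium, had no count in forebrain and 197 and 204 CPM in rumen, at least 1748-fold higher, while FXYD6, its neuronal relative, had 418 and 478 CPM in forebrain and 114 and 104 CPM in rumen. SLC15A1, the peptide carrier of the gut lining, had 0.407 and 0.217 CPM in forebrain and 10.8 and 9.21 CPM in rumen.

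The cytoskeleton differed by filament system. Tubulins took 1.47 and 1.55% of the counts of the forebrain libraries and 0.262 and 0.257% of those of the rumen libraries, and microtubule-associated proteins and stathmins took 2.66 and 2.53% of the counts of the forebrain libraries and 0.262 and 0.288% of those of the rumen libraries. Of 31 tested genes of the second list, 17 were lower and 1 higher in rumen (11 to 23 and 0 to 4 with 1 library left out). MAP1B, of growing axons, had 3237 and 3203 CPM in forebrain and 332 and 348 CPM in rumen (log2 fold change -3.24, SE 0.29, adjusted p = 0.0006). CRMP1, which carries semaphorin signals to microtubules, had 539 and 526 CPM in forebrain and 21.7 and 29.5 CPM in rumen. STMN3, a neuronal stathmin, had 506 and 544 CPM in forebrain and 28.6 and 25.6 CPM in rumen. Among the main tubulins of young neurons, TUBA1A had 3756 and 3996 CPM in forebrain and 240.1 and 182 CPM in rumen, and TUBB2B had 1204 and 1553 CPM in forebrain and 63.3 and 65 CPM in rumen. TUBB6 had 10.0 and 17.5 CPM in forebrain and 100.5 and 122 CPM in rumen. TUBA4A had 10.1 and 5.48 CPM in forebrain and 83.6 and 74.2 CPM in rumen, and both were higher in rumen. Kinesins were called in both directions. Of 25 tested, 11 were higher and 8 lower in rumen (6 to 13 and 4 to 10 with 1 library left out). The mitotic KIF15 had 1.79 and 2.74 CPM in forebrain and 23.6 and 28.8 CPM in rumen (log2 fold change 3.52, SE 0.34, adjusted p = 0.00071). KIFC1 had 7.97 and 6.35 CPM in forebrain and 37.6 and 37.6 CPM in rumen. Lower in rumen were the axonal transport motors KIF5A with 57.1 and 58.5 CPM in forebrain and 3.9 and 4.53 CPM in rumen and KIF3C with 121 and 102 CPM in forebrain and 9.72 and 13.6 CPM in rumen. Genes of cilia and their transport were more often lower, with 22 lower and 1 higher of 59 (4 to 34 and 1 to 6 with 1 library left out). The higher member of the cilia list, SPAG5, is a protein of the mitotic spindle, with 7.24 and 7.51 CPM in forebrain and 39.1 and 46.8 CPM in rumen.

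Genes of smooth muscle contraction were more often higher than lower in rumen. Of 44 tested smooth muscle genes, 28 were higher and 1 lower in rumen (23 to 30 and 1 to 4 with 1 library left out). PLN, the regulator of the calcium pump of muscle, had no count in forebrain and 57.3 and 86.8 CPM in rumen, at least 627-fold higher, and LMOD1, an actin nucleator of smooth muscle, had 0 and 0.505 CPM in forebrain and 80.4 and 65.5 CPM in rumen (log2 fold change 8.06, SE 0.88, adjusted p = 0.0011). The exception was GUCY1B1, a subunit of the nitric oxide receptor, with 238 and 224 CPM in forebrain and 41.2 and 45 CPM in rumen (log2 fold change -2.42, SE 0.36, adjusted p = 0.0032). TPM2, a tropomyosin of muscle, had 11.4 and 17.6 CPM in forebrain and 844 and 868 CPM in rumen (log2 fold change 5.88, SE 0.45, adjusted p = 0.00041). Non-muscle myosin also divided. MYH9, the heavy chain of most cells, had 37.3 and 38.1 CPM in forebrain and 503 and 571 CPM in rumen (log2 fold change 3.83, SE 0.36, adjusted p = 0.00064), while MYH10, its neural counterpart, had 28 and 20.6 CPM in forebrain and 25.6 and 30.4 CPM in rumen and did not pass. Of the regulatory light chains, MYL12A had 159 and 175 CPM in forebrain and 832 and 894 CPM in rumen, and MYL12B had 175 and 194 CPM in forebrain and 61 and 59.1 CPM in rumen, so that MYL12A was higher and MYL12B lower in rumen. These light chains are near-identical copies, and their counts are uncertain where reads were shared. Of 55 tested genes of actin nucleation and bundling, 13 were lower and 11 higher in rumen (5 to 26 and 3 to 18 with 1 library left out, 17 and 9 with library totals alone). These shares, 23.6 and 20%, were close to the 19.9 and 19.5% of all tested genes. PFN2, the profilin of neurons, had 939 and 918 CPM in forebrain and 128 and 137 CPM in rumen (log2 fold change -2.81, SE 0.23, adjusted p = 0.00045). BASP1, a growth cone protein, had 1963 and 2131 CPM in forebrain and 236 and 244 CPM in rumen. GSN, the severing protein gelsolin, had 29.2 and 49.7 CPM in forebrain and 396 and 386 CPM in rumen (log2 fold change 3.31, SE 0.32, adjusted p = 0.00072), which was higher in rumen. MYL4, the atrial and embryonic light chain, had 1.38 and 1.8 CPM in forebrain and 122 and 73.8 CPM in rumen.

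Small GTPases and their regulators also divided by gene. Of 52 tested RAB GTPases, 15 were lower and 8 higher in rumen (8 to 29 and 4 to 14 with 1 library left out). RAB3A, of synaptic vesicles, had 321 and 361 CPM in forebrain and 9.11 and 9.6 CPM in rumen (log2 fold change -5.19, SE 0.25, adjusted p = 0.00025). RAB6A, of the Golgi, had 666 and 599.9 CPM in forebrain and 138 and 147 CPM in rumen. RAB25, of epithelial recycling, had 0.0813 and 0.0722 CPM in forebrain and 44.9 and 30.0 CPM in rumen (adjusted p = 0.0032), on 2 counts in all in forebrain. Of 38 tested GTPase activators and exchangers, 13 were higher and 5 lower in rumen (6 to 15 and 2 to 8 with 1 library left out). ARHGEF19 had 1.95 and 1.44 CPM in forebrain and 138 and 131 CPM in rumen (log2 fold change 6.31, SE 0.68, adjusted p = 0.001). ARHGEF25, an exchanger of smooth muscle and heart, had 34.4 and 34.7 CPM in forebrain and 120.1 and 112 CPM in rumen. Of 46 tested G protein and RGS genes, 15 were lower and 5 higher in rumen (5 to 22 and 3 to 8 with 1 library left out). Among gamma subunits of neurons, GNG3 had 500.3 and 631 CPM in forebrain and 15.7 and 16.2 CPM in rumen, and GNG4 had 620.4 and 570.4 CPM in forebrain and 15.8 and 16.1 CPM in rumen. Other gamma subunits were higher in rumen, GNG5 with 26.3 and 32.2 CPM in forebrain and 193 and 206 CPM in rumen and GNG11 with 14.1 and 19.6 CPM in forebrain and 133 and 121 CPM in rumen. PKIA, the inhibitor of protein kinase A, had 2140.4 and 2036 CPM in forebrain and 38 and 34.4 CPM in rumen (log2 fold change -5.85, SE 0.25, adjusted p = 0.00023) and was among the 10 smallest p-values of the genes lower in rumen.

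Genes of epithelial desmosomes and hemidesmosomes were mostly higher in rumen. Of 17 tested genes of desmosomes and hemidesmosomes, 15 were higher and 0 lower in rumen (12 to 15 and 0 with 1 library left out), with a median of 6.16. DSP, the plakin of desmosomes, had 0 and 0.144 CPM in forebrain and 401 and 389.6 CPM in rumen (adjusted p = 0.00025), on 2 counts in all in forebrain. EVPL, envoplakin, had 0.163 and 0.505 CPM in forebrain and 166 and 161 CPM in rumen (log2 fold change 8.86, SE 0.64, adjusted p = 0.00034). COL17A1, the collagen of hemidesmosomes, had 0.244 and 0.361 CPM in forebrain and 107 and 92.1 CPM in rumen (log2 fold change 8.31, SE 0.36, adjusted p = 0.00023). JUP, plakoglobin, which is shared with other junctions, had 36.2 and 49.2 CPM in forebrain and 500.1 and 415 CPM in rumen (log2 fold change 3.42, SE 0.26, adjusted p = 0.00041). All of these junction genes were higher in both rumen libraries. LAD1, an anchoring filament protein of the basement membrane, had 0.163 and 0.0722 CPM in forebrain and 213 and 184 CPM in rumen (adjusted p = 0.00023), on 3 counts in all in forebrain, with the smallest p on the rumen side. Of 24 tested tight junction genes, 10 were higher and 0 lower in rumen (5 to 14 and 0 to 4 with 1 library left out). F11R, an adhesion molecule of tight junctions, had 15 and 14.2 CPM in forebrain and 161 and 142 CPM in rumen (log2 fold change 3.37, SE 0.23, adjusted p = 0.00032). CGN, cingulin, had 10.3 and 8.01 CPM in forebrain and 79.7 and 74.1 CPM in rumen. Cadherins were the reverse in number. Of 32 tested cadherins and catenins, 13 were lower and 5 higher in rumen (9 to 15 and 4 to 8 with 1 library left out). CDH2, the neural cadherin, had 268 and 297 CPM in forebrain and 30.9 and 39.4 CPM in rumen (log2 fold change -3.01, SE 0.32, adjusted p = 0.00093). CDH13, a cadherin without a cytoplasmic tail, had 279 and 226 CPM in forebrain and 20.6 and 14.4 CPM in rumen. CTNNA2, the neural alpha catenin, had 255 and 274 CPM in forebrain and 15.8 and 19.7 CPM in rumen (log2 fold change -3.89, SE 0.26, adjusted p = 0.00049). All 3 of these genes were lower in rumen. CDH1, the epithelial cadherin, had 0.0813 and 0 CPM in forebrain and 15.9 and 19.6 CPM in rumen (adjusted p = 0.0055), on 1 count in all in forebrain. Its partner CTNND1 had 40.7 and 36.3 CPM in forebrain and 211 and 195 CPM in rumen, and its partner CTNNA1 had 129 and 119 CPM in forebrain and 527 and 521 CPM in rumen. Integrins had 9 higher and 1 lower of 19 (5 to 13 and 0 to 1 with 1 library left out). ITGB4, of hemidesmosomes, had 0.407 and 1.23 CPM in forebrain and 61.1 and 49.4 CPM in rumen. ITGA5, the fibronectin receptor, had 6.1 and 7.72 CPM in forebrain and 136 and 160.4 CPM in rumen (log2 fold change 4.42, SE 0.28, adjusted p = 0.00028).

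Guidance molecules showed no common direction. Semaphorins and plexins had 5 higher and 4 lower of 18 (2 to 6 and 2 to 4 with 1 library left out), and ephrins and their receptors had 5 and 4 of 17 (3 to 8 and 2 to 7 with 1 library left out). SEMA3B, a secreted semaphorin, had 1.06 and 1.15 CPM in forebrain and 116 and 113 CPM in rumen (log2 fold change 6.68, SE 0.95, adjusted p = 0.0027). SEMA6A, a membrane-bound one, had 58.9 and 34.2 CPM in forebrain and 4.97 and 4.37 CPM in rumen. EPHA1, an Eph receptor of epithelium, had 0.244 and 0.144 CPM in forebrain and 31.2 and 33 CPM in rumen. EPHB1, of neurons, had 151 and 123 CPM in forebrain and 0.842 and 0 CPM in rumen (log2 fold change -8.30, SE 0.96, adjusted p = 0.0022). The forebrain libraries were thus higher in SEMA6A and EPHB1 and the rumen libraries in SEMA3B and EPHA1. SLIT3, a secreted guidance factor, had 2.44 and 5.05 CPM in forebrain and 79 and 86.4 CPM in rumen (log2 fold change 4.45, SE 0.46, adjusted p = 0.00087), higher in rumen. RELN, the secreted signal that positions neurons, had 266 and 244 CPM in forebrain and 8.26 and 7.73 CPM in rumen (log2 fold change -4.99, SE 0.24, adjusted p = 0.00025).

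Genes of the extracellular matrix were more often higher than lower in rumen in each class counted here. Of 21 tested genes of elastic fibres and microfibrils, 20 were higher and 1 lower in rumen (17 to 20 and 0 to 1 with 1 library left out). ELN, elastin, had 29.8 and 20.2 CPM in forebrain and 940.3 and 866 CPM in rumen (log2 fold change 5.17, SE 0.42, adjusted p = 0.00045). EMILIN1, a glycoprotein between elastin and microfibrils, had 2.11 and 3.32 CPM in forebrain and 430.4 and 365 CPM in rumen (log2 fold change 7.18, SE 0.62, adjusted p = 0.00052). The lower member was MFAP3, with 109 and 101 CPM in forebrain and 43.2 and 25.4 CPM in rumen, and it did not pass without Forebrain 1 (adjusted p = 0.064), Forebrain 2 (adjusted p = 0.052) or Rumen 2 (adjusted p = 0.057). Of 21 tested collagens, 14 were higher and 0 lower in rumen (9 to 15 and 0 to 1 with 1 library left out), and of 14 tested genes of laminins and the basement membrane, 11 were higher and 0 lower in rumen (8 to 11 and 0 with 1 library left out). COL6A1, a collagen of microfilaments around cells, had 0.894 and 4.47 CPM in forebrain and 834 and 981 CPM in rumen (log2 fold change 8.38, SE 0.75, adjusted p = 0.00058). COL18A1, of basement membranes, had 14.7 and 16.9 CPM in forebrain and 595 and 577 CPM in rumen (log2 fold change 5.21, SE 0.48, adjusted p = 0.00064). NID1, which links laminin to collagen, had 22 and 24.8 CPM in forebrain and 241 and 291 CPM in rumen. Of 21 tested enzymes that modify collagen, 13 were higher and 0 lower in rumen (10 to 15 and 0 with 1 library left out). SERPINH1, the collagen chaperone, had 126 and 131 CPM in forebrain and 867 and 721 CPM in rumen (log2 fold change 2.63, SE 0.31, adjusted p = 0.0014). PLOD2, a lysyl hydroxylase, had 11.1 and 10.9 CPM in forebrain and 76.6 and 91.7 CPM in rumen. DCN, decorin, had 5.85 and 19.9 CPM in forebrain and 1324 and 1440.3 CPM in rumen (log2 fold change 6.74, SE 0.64, adjusted p = 0.00067). Over the 20 tested small leucine-rich proteoglycans and hyalectans, 10 were higher and 5 lower in rumen (6 to 11 and 4 to 7 with 1 library left out). ASPN, asporin, had 0.0813 and 0.0722 CPM in forebrain and 287 and 323 CPM in rumen (adjusted p = 0.00023), on 2 counts in all in forebrain, and OGN, osteoglycin, had 7.64 and 8.88 CPM in forebrain and 372 and 355 CPM in rumen. The hyaluronan-binding proteoglycans of brain matrix were lower, NCAN, neurocan, with 879 and 705 CPM in forebrain and 14.5 and 18.1 CPM in rumen (log2 fold change -5.60, SE 0.29, adjusted p = 0.00025) and BCAN, brevican, with 295 and 318 CPM in forebrain and 0 and 1.01 CPM in rumen (log2 fold change -9.22, SE 0.99, adjusted p = 0.0018). CSPG5, a membrane proteoglycan of neurons, had 402 and 352 CPM in forebrain and 8.57 and 9.6 CPM in rumen. The forebrain libraries were thus above the rumen libraries in all 3 brain proteoglycans. POSTN, periostin, a matrix protein of mesenchyme, had 3.33 and 4.55 CPM in forebrain and 776 and 666 CPM in rumen (log2 fold change 7.51, SE 0.31, adjusted p = 0.00023). THBS2, thrombospondin 2, had 0.813 and 1.08 CPM in forebrain and 55.1 and 69.1 CPM in rumen.

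Surface and barrier proteins of epithelium were present in both rumen libraries. Of 24 tested S100 and annexin genes, 18 were higher and 3 lower in rumen (12 to 19 and 2 to 3 with 1 library left out). S100A12, a calcium-binding protein of granulocytes and squamous epithelium, had 0.0813 and 0.217 CPM in forebrain and 501 and 451 CPM in rumen (log2 fold change 11.52, SE 0.92, adjusted p = 0.00043). S100A11 had 45.6 and 64.9 CPM in forebrain and 1066 and 1153 CPM in rumen (log2 fold change 4.33, SE 0.28, adjusted p = 0.00029). ANXA1, an annexin of epithelium and immune cells, had 15.2 and 20.9 CPM in forebrain and 740.2 and 665 CPM in rumen (log2 fold change 5.28, SE 0.50, adjusted p = 0.00067). S100B, of glia, had 397 and 660.4 CPM in forebrain and 31.3 and 24.2 CPM in rumen (log2 fold change -4.25, SE 0.36, adjusted p = 0.00048). S100A1, of muscle and neurons, had 14.6 and 26.2 CPM in forebrain and 1.61 and 0.702 CPM in rumen, and both were lower. Of 25 tested genes of the cornified envelope and barrier lipids, 15 were higher and 7 lower in rumen (12 to 16 and 1 to 8 with 1 library left out). SFN, a 14-3-3 protein of stratified epithelium, had 0 and 0.0722 CPM in forebrain and 337 and 306 CPM in rumen (adjusted p = 0.00055), on 1 count in all in forebrain. KRTDAP, a keratinocyte differentiation protein, had no count in forebrain and 419 and 332 CPM in rumen, at least 3277-fold higher, and TRIM29 had 0.163 and 0.144 CPM in forebrain and 218 and 171 CPM in rumen (log2 fold change 10.23, SE 0.41, adjusted p = 0.00025). LORICRIN, a late protein of the cornified envelope, ran the other way, with 25.1 and 30.5 CPM in forebrain and 0 and 0.39 CPM in rumen, but did not pass without Forebrain 2 (adjusted p = 0.054). Protease inhibitors had 17 higher and 5 lower of 37 (11 to 18 and 3 to 8 with 1 library left out). SPINK5, an inhibitor of skin proteases, had 0.325 and 0 CPM in forebrain and 122 and 97.5 CPM in rumen (log2 fold change 9.39, SE 0.99, adjusted p = 0.00096). SERPINB4 had no count in forebrain and 40.7 and 41.4 CPM in rumen, and CST3, the secreted inhibitor cystatin C, had 1909 and 2299 CPM in forebrain and 266 and 186 CPM in rumen (log2 fold change -3.22, SE 0.39, adjusted p = 0.0015), lower in rumen. MUC1, a membrane mucin, had 0.244 and 0.65 CPM in forebrain and 104 and 91.1 CPM in rumen (log2 fold change 7.72, SE 0.68, adjusted p = 0.00056). AGR2, a folding enzyme of mucous cells, had 0.0813 and 0.217 CPM in forebrain and 33.2 and 36.6 CPM in rumen.

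Growth factor systems differed member by member. The IGF system had 9 higher and 1 lower of 14 (5 to 12 and 0 to 1 with 1 library left out). Among proteins that bind the IGFs, IGFBP4 had 35 and 39.3 CPM in forebrain and 441 and 365 CPM in rumen, and IGFBP6 had 12 and 14.3 CPM in forebrain and 453 and 304 CPM in rumen. IGFBPL1, a relative of young neurons, had 272 and 169 CPM in forebrain and 0.383 and 0.468 CPM in rumen (log2 fold change -8.99, SE 0.45, adjusted p = 0.00025), opposite to them. Of 11 tested hedgehog genes, 7 were higher and 1 lower in rumen (3 to 7 and 0 to 1 with 1 library left out), with a median of 2.85. GLI1, a target and effector of the pathway, had 0.0813 and 0.217 CPM in forebrain and 16.5 and 18.4 CPM in rumen (log2 fold change 6.76, SE 0.70, adjusted p = 0.00089). SMO, the signal transducer, had 12 and 10.3 CPM in forebrain and 75.8 and 85.8 CPM in rumen (log2 fold change 2.85, SE 0.34, adjusted p = 0.0014). PTCH1, the receptor, had 3.09 and 3.46 CPM in forebrain and 4.21 and 4.92 CPM in rumen and did not pass. Of 45 tested genes of TGF-beta, BMP and activin signalling, 19 were higher and 5 lower in rumen (14 to 21 and 1 to 9 with 1 library left out). Among proteins that store TGF-beta in the matrix, LTBP2 had 0.163 and 0.577 CPM in forebrain and 28.6 and 27.5 CPM in rumen, and LTBP3 had 28.9 and 20.2 CPM in forebrain and 163 and 169 CPM in rumen. Among follistatin-like proteins, FSTL1 had 35.5 and 39.1 CPM in forebrain and 708 and 660.4 CPM in rumen, and FSTL3 had 1.14 and 0.938 CPM in forebrain and 58.1 and 45.7 CPM in rumen. BMPER, a BMP modulator, had 13.2 and 10.8 CPM in forebrain and 1.68 and 1.01 CPM in rumen (log2 fold change -3.14, SE 0.44, adjusted p = 0.0025), lower in rumen. Among WNT genes 9 were higher and 4 lower of 35 (3 to 15 and 2 to 6 with 1 library left out), with ROR2, a WNT5A receptor, at 1.63 and 1.15 CPM in forebrain and 30.6 and 45.3 CPM in rumen (log2 fold change 4.76, SE 0.55, adjusted p = 0.0013), RSPO3, a WNT enhancer, at 6.51 and 5.27 CPM in forebrain and 56.7 and 65.9 CPM in rumen and DKK3 at 367 and 382 CPM in forebrain and 82.5 and 89.2 CPM in rumen.

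FGF genes were more often lower than higher, 8 against 4 of 18 (4 to 8 and 3 to 6 with 1 library left out). Among intracellular regulators of sodium channels, FGF13 had 126 and 99.6 CPM in forebrain and 8.65 and 11.1 CPM in rumen, and FGF14 had 56.8 and 60.8 CPM in forebrain and 4.74 and 2.73 CPM in rumen. FGFR1, a receptor of mesenchyme and neural progenitors, had 33.4 and 34.4 CPM in forebrain and 122 and 119.9 CPM in rumen (log2 fold change 1.84, SE 0.22, adjusted p = 0.0016), higher in rumen. ERBB2, the partner of ERBB3, had 24.9 and 19.3 CPM in forebrain and 212 and 190.2 CPM in rumen (log2 fold change 3.19, SE 0.31, adjusted p = 0.00074). NTF4, a neurotrophin, had no count in forebrain and 8.49 and 12 CPM in rumen, at least 89.3-fold higher, and NRTN, a GDNF family ligand of enteric neurons, had 2.2 and 2.02 CPM in forebrain and 19.1 and 16.3 CPM in rumen (log2 fold change 3.07, SE 0.42, adjusted p = 0.0024). Notch genes had 3 higher and 3 lower of 18 (1 to 6 and 2 to 6 with 1 library left out), with NUMB, an inhibitor of Notch, at 19.8 and 21.8 CPM in forebrain and 81 and 92.2 CPM in rumen (log2 fold change 2.06, SE 0.30, adjusted p = 0.003) and DTX1, a modulator, at 77.5 and 86.8 CPM in forebrain and 12.9 and 8.04 CPM in rumen. Both shares of the Notch list, 16.7%, were under those of all tested genes.

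Receptors for immune signals were more often higher than lower in rumen. Of 26 tested interleukins and receptors, 12 were higher and 2 lower in rumen (8 to 13 and 0 to 3 with 1 library left out). IL1R1, the interleukin 1 receptor, had 1.22 and 1.44 CPM in forebrain and 77.9 and 93.1 CPM in rumen (log2 fold change 5.99, SE 0.36, adjusted p = 0.00026). IL4R had 0.488 and 1.52 CPM in forebrain and 29.1 and 27.9 CPM in rumen. IL20RA, a receptor of epithelium, had 0 and 0.289 CPM in forebrain and 19.9 and 19.8 CPM in rumen (log2 fold change 6.96, SE 1.01, adjusted p = 0.003). Of 34 tested genes of the TNF family and NF-kappa-B, 14 were higher and 5 lower in rumen (6 to 16 and 1 to 7 with 1 library left out). TNFRSF1A, the main TNF receptor, had 11.4 and 17.3 CPM in forebrain and 159 and 142 CPM in rumen (log2 fold change 3.39, SE 0.30, adjusted p = 0.00058). Among subunits of NF-kappa-B, RELA had 18.2 and 22.7 CPM in forebrain and 85.9 and 74.8 CPM in rumen, and NFKB2 had 4.72 and 3.97 CPM in forebrain and 51.1 and 43.9 CPM in rumen. NFKBIA, their inhibitor, had 14.8 and 14.7 CPM in forebrain and 100.0 and 74.1 CPM in rumen, so that subunits and inhibitor were higher together. TNFRSF21, the death receptor of neurons, had 87.1 and 92.7 CPM in forebrain and 22.6 and 17.7 CPM in rumen (log2 fold change -2.16, SE 0.31, adjusted p = 0.0027), lower in rumen. Of 39 tested genes of complement and coagulation, 17 were higher and 4 lower in rumen (9 to 20 and 1 to 7 with 1 library left out). Among the proteases that start the classical pathway, C1R had 1.38 and 1.52 CPM in forebrain and 23.7 and 25.8 CPM in rumen, and C1S had 1.22 and 2.67 CPM in forebrain and 26.3 and 25.2 CPM in rumen. SERPING1, their inhibitor, had 22.8 and 22.4 CPM in forebrain and 167 and 153 CPM in rumen. F3, the tissue factor that starts coagulation, had 19.8 and 14.9 CPM in forebrain and 194 and 187 CPM in rumen (log2 fold change 3.46, SE 0.38, adjusted p = 0.0011). Chemokines and receptors had 12 higher and 6 lower of 26 (3 to 13 and 1 to 7 with 1 library left out), with CXCL12, a chemokine of stroma, at 18.3 and 14.5 CPM in forebrain and 138 and 129 CPM in rumen (log2 fold change 3.02, SE 0.34, adjusted p = 0.0012) and CXCL5 at 0.163 and 0 CPM in forebrain and 19.4 and 27.4 CPM in rumen (adjusted p = 0.0019), on 2 counts in all in forebrain. The lymphocyte and mast cell markers, 7 tested, summed to 213 and 152 CPM in forebrain and 65.3 and 109 CPM in rumen, and 1 was called, lower in rumen. That share, 14.3%, was under the 19.9% of all tested genes.

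**Figure D5:**
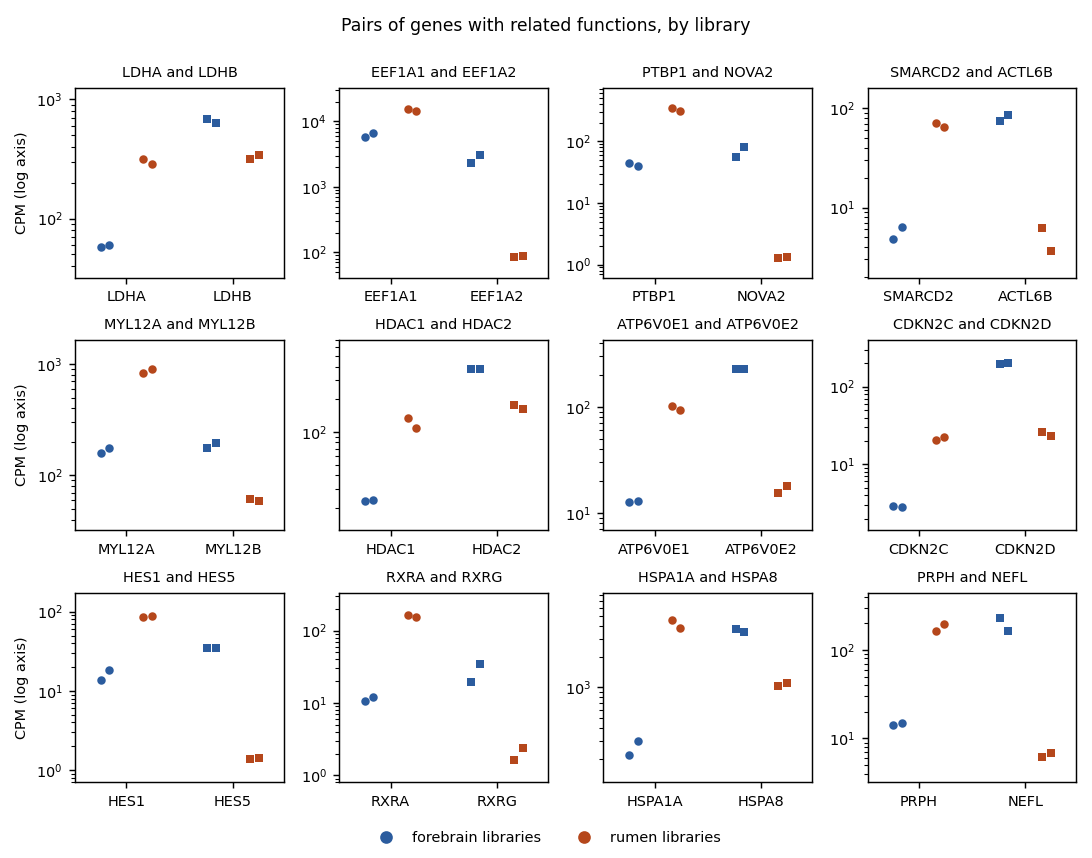
CPM on a log axis of 12 pairs of genes with related functions in the 2 forebrain and 2 rumen libraries. Each pair has 1 panel, with 1 point per library and the first gene of a pair on the left. PTBP1 with NOVA2 and SMARCD2 with ACTL6B are related by function only and are not paralogues. Only pairs in which both genes were called, in opposite directions, are shown, so the common pattern follows from that choice. In each panel the first gene lies higher and the second lower in rumen, and no tissue overlaps the other for either gene. The calls of some of these genes did not pass with a library left out, as the text gives.

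Related genes stood on opposite sides of the comparison in several families, and the pairs shown were picked for this. In other families the counterpart did not pass, as with PTBP2, ACTL6A, ENO1, ALDOA and MYH10. LDHA and LDHB, HES1 and HES5, HDAC1 and HDAC2, and ATP6V0E1 and ATP6V0E2 are each a pair of paralogues in which both genes were called, in opposite directions, although the calls of LDHB and HDAC2 did not pass in 4 of the 6 leave-one-out fits. In CDKN2C and CDKN2D, as in HSPA1A and HSPA8, both calls passed in all 6 leave-one-out fits. Levels are not compared here between the genes of a pair, since counts were not divided by gene length.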

How the data were processed

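RNA of the forebrain, rumen and liver of bovine fetuses was sequenced, with 2 libraries per tissue. Per the labels' protocols, poly(A) RNA was made into libraries with the NEBNext Ultra kit. The authors deposited a table of raw read counts per gene symbol. The submitters' processing notes name HISAT2 2.0.5, featureCounts 1.5.0-p3 and edgeR 3.18.1. Build, gene annotation and strand handling are not given in the sources here. Reads of overlapping genes and near-identical copies may therefore be mixed.

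From the deposited counts, edgeR 4.0.16 (R 4.3.3) was run with TMM scaling, its default filter on low counts by tissue and a quasi-likelihood fit of tissue in all 6 libraries, which left 3 residual degrees of freedom. The contrast was rumen minus forebrain, and p-values were adjusted by Benjamini-Hochberg over all 11478 tested genes at a threshold of 0.05. SEs are the absolute log2 fold change over the square root of the F statistic. CPM use the TMM-scaled library size. Where a tissue has no count, the fold is a lower bound set against 3 counts over both its libraries, and no fold is given against 1 to 3 counts. For 3 counts a single forebrain library gives 0.244 or 0.217 CPM, and intervals and floors cover counting error only. Gene lists are counted by calls and by the median, with no test of the list. They, and the comparison itself, were chosen with earlier results of these data known. Named genes are called members of a list in the top 5 by absolute log2 fold change or by mean CPM in either direction, both genes of preset pairs, and the 10 smallest p-values and 10 largest CPM differences in each direction. PECAM1, CDH5, PTCH1, MEG3, GNAS, the regional factors of the forebrain and the imprinted list fall outside that rule and were chosen after their values were seen. Replicates were no copies of each other, since chi-square over its degrees of freedom was 17.5 for forebrain, 15.5 for rumen and 280 for liver. Alternatives were other scalings, no filter, the 4 libraries alone, a replicate block, DESeq2 1.42.0 and each library left out. The fit was tested on simulated counts.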

Additional observations from a re-analysis of the deposited data

How the results depend on the processing

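With the 4 forebrain and rumen libraries alone, 3568 genes were higher and 3591 lower in rumen. With 1 library left out, the counts lay between 931 and 3482 higher and between 947 and 3659 lower. The liver libraries add to the shared spread, and with 1 of the other libraries gone its tissue rests on a lone library that is assumed to vary like the rest. Under the other scalings, without the filter and with DESeq2, the counts stayed within 1.5 times the main ones. Library totals without a scaling factor shifted the median log2 fold change of all genes by -0.15 and gave 1962 higher and 2585 lower. DESeq2's Wald test gave 2421 and 2727. Of 1187 called genes that the naming rule allows, 540 were called in all 6 leave-one-out fits, and the genes named in the text were taken mostly from these, after the fits were seen. Among the 309 named genes that were called, 290 were called in every alternative, and the other 19 were lost without at least 1 forebrain or rumen library. Their causes were not tested. With 3 residual degrees of freedom, a 2-fold difference could be missed at this depth and number of libraries.

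Replicate numbers were not taken as pairs, since no label ties a library to a fetus. The difference between library 1 and library 2 correlated at r = -0.10 between forebrain and rumen, 0.0542 between forebrain and liver and 0.036 between liver and rumen, across 8815 genes, which are not independent replicates. These correlations cannot decide whether libraries of the same number share a fetus, since a difference between fetuses need not be alike across tissues. With a replicate block the counts were 1990 higher and 1971 lower. With the rumen numbers crossed, an alternative chosen after seeing the data, they were 1980 and 1969.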

Other observations

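Some genes known from muscle or skin were detected in the forebrain libraries. MYH7, the slow myosin heavy chain, had 20.2 and 44.2 CPM in forebrain and 0.689 and 1.25 CPM in rumen, lower in rumen, but did not pass without Forebrain 1 (adjusted p = 0.072), Forebrain 2 (adjusted p = 0.15), Rumen 1 (adjusted p = 0.15) or Rumen 2 (adjusted p = 0.12). TNNT1, slow troponin T, had 32.9 and 27.7 CPM in forebrain and 0 and 0 CPM in rumen. TNNI3, cardiac troponin I, had 17.2 and 17.2 CPM in forebrain and 2.6 and 3.36 CPM in rumen, lower in rumen, but did not pass without Forebrain 1 (adjusted p = 0.16), Forebrain 2 (adjusted p = 0.16), Rumen 1 (adjusted p = 0.15) or Rumen 2 (adjusted p = 0.12). KRT81, a hair keratin, had 33.6 and 18.5 CPM in forebrain and 0 and 0 CPM in rumen. CA3, a carbonic anhydrase of muscle, had 134 and 263 CPM in forebrain and 8.57 and 18.7 CPM in rumen. These genes were chosen after their values were seen, and both forebrain libraries carried each of them. Of 27 tested genes of the skeletal and cardiac sarcomere, 9 were higher and 6 lower in rumen (3 to 11 and 1 to 8 with 1 library left out).

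The list of nucleolar ribosome assembly holds the genes that build the ribosome. Of 44 tested, 8 were higher and 1 lower in rumen (1 to 22 and 0 to 4 with 1 library left out, 5 and 3 with library totals alone), with a median log2 fold change of 0.50. The share higher, 18.2%, was under the 19.5% of all tested genes. Of 31 tested aminoacyl-tRNA synthetases, 8 were higher and 4 lower in rumen (1 to 11 and 0 to 9 with 1 library left out, 8 and 2 with upper-quartile scaling, 5 and 4 with library totals alone), and of 27 tested Mediator subunits, 4 were higher and 4 lower in rumen (0 to 6 and 0 to 4 with 1 library left out). For Mediator both shares were 14.8%, under those of all tested genes. The difference between these lists and the ribosomal proteins was not tested.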
